A study of Danio rerio with 20 samples.

Results

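The proteasome genes of the zebrafish were described in oligodendrocyte precursor cells (OPCs), the glial progenitors from which myelinating oligodendrocytes arise. The genes were chosen by name, as every gene whose symbol starts with psm, then a letter from a to g and a digit. Of the 31743 genes in the tables, 56 had such a name, and they comprised 9 psma, 14 psmb, 8 psmc, 15 psmd, 6 psme, 1 psmf and 3 psmg genes. Of these, 48 are known as subunits, activators or the inhibitor of the proteasome. No gene was named psma7, psmd2 or psmg4. The genes psmd5, psmd9, psmd10, psmg1, psmg2 and psmg3 are assembly chaperones, and psmc3ip and psme3ip1 share the name without being subunits.

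The OPCs had been sorted from zebrafish, and RNA was sequenced at the 3′ ends of transcripts in 20 libraries that formed 4 groups of 5. Fish were exposed for 16 h to 4-aminopyridine (4AP), a blocker of potassium channels that raises neuronal activity, or were demyelinated through capsaicin and TRPV1, the cation channel that capsaicin opens. Each of the treatments had a control group of its own, and the series sets adaptive beside regenerative myelination. Strain, age, the agent given to controls, the cells that carried TRPV1 and the reporter used for sorting are not given in the sources used here. The sources do not say whether libraries came from separate fish or pools, so p-values measure only the spread between libraries, which may be technical.

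The proteasome is the protease complex that degrades ubiquitin-tagged proteins in the cytosol and nucleus. Its barrel-shaped core has outer rings of psma products, which gate the entry, and inner rings of psmb products, a few of which carry the active sites. The regulatory particle that caps the barrel unfolds substrates with a ring of psmc ATPases and recognises and strips ubiquitin with psmd products. In OPCs and oligodendrocytes, as in other cells, it sets the lifetime of many regulators of the cell cycle and of differentiation.

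Gene reads per library, introns included, ranged from 163158 to 897620 among the 4AP controls and from 356494 to 1744483 under 4AP. Among demyelination controls they ranged from 1180 to 282966, and after demyelination from 38314 to 3528970. Levels are given as CPM, a gene's reads scaled by all gene reads of the library, with no scaling for length because 3′ ends were read. Demyelination control 1, with 1180 reads, held 1 read of the proteasome genes, and means of that group are given over the other 4 libraries. A chi-square test over genes gave p = 0.2924 against demyelination control 3 and p = 0.01668 or less against controls 2, 4 and 5. Chi-square per degree of freedom was 1.02 against control 3 and at most 1.156 against the others. With 1180 reads the expected counts of most genes are too small for these p-values to show likeness or difference. The labelled cell type was checked with 7 OPC markers (olig2, olig1, sox10, pdgfra, cspg4, nkx2.2a and sox6). Summed, they reached 247 to 509 CPM without and 689 to 893 CPM with 4AP, 491 to 666 CPM in demyelination controls 2 to 5 and 287 to 601 CPM after demyelination. Demyelination control 1 held 0 reads of them. In the other libraries 4 to 7 of the 7 were seen; olig2 was at 0 in demyelination 2, pdgfra in demyelination 1, and sox10 in demyelination 1 and 4AP control 1. A list of 7 myelin markers summed to 519 to 1232 CPM without and 871 to 1933 CPM with 4AP. It summed to 1201 to 3089 CPM in demyelination controls 2 to 5 and 298 to 1575 CPM after demyelination, and its part in the proteasome values was not tested. The table names carry a prefix whose meaning is not stated, and it divides the 4AP controls. Controls 1 to 4 share a prefix of their own, 4AP control 5 has that of all 5 4AP libraries, and the demyelination experiment has another.

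The 56 genes took 22903 reads in all, between 1 read in demyelination control 1 and 5222 in demyelination 5. Only psmd13, a lid subunit, had a read in all 20 libraries, and 11 genes had one in at least 19. The number of the 56 detected was 38 to 42 in 4AP controls 1 to 4, 51 in control 5, 45 to 53 in 4AP, 41 to 49 in demyelination controls 2 to 5, 31 to 36 in demyelination 1 to 4 and 55 in demyelination 5. Introns held 7.80% of their reads, against 32.0% of the reads of all genes. Of genes with at least 50 reads, psme4a and psme4b, paralogues of the nuclear activator PA200, had the highest intron shares, 77.2% and 79.1%. Of those with fewer, psmb8a (83.3% of 6 reads) and psmb13a (81.8% of 11 reads) were above them. The spans of 19 of the 56 overlap another gene, and with the strand of counting not given, reads of overlapping genes cannot be told apart.

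**Figure D1:**
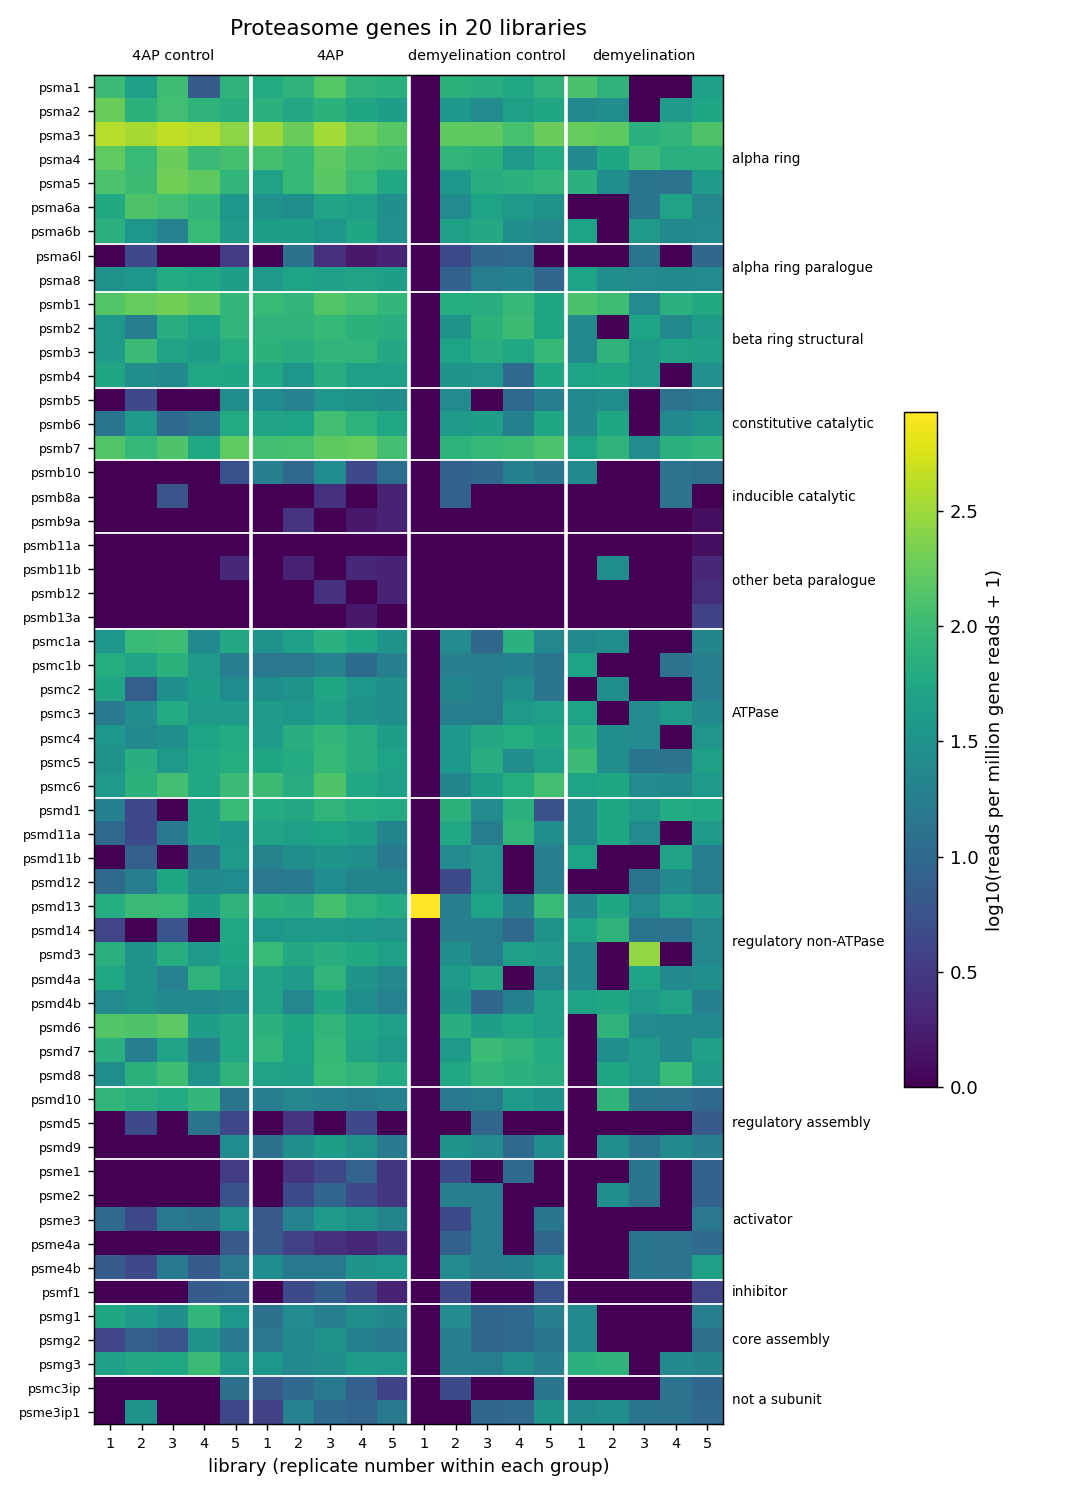
Level of each of the 56 genes (rows, grouped by role) in each of the 20 libraries (columns, by group and replicate number), as log10 of CPM plus 1 on the colour scale. The genes psma3, psmb7, psmb1, psma4 and psma5 form the brightest rows. Among the inducible and other beta paralogues, psmb10 reaches 25.3 CPM and the rest are near 0 in most libraries. The single bright cell of demyelination control 1 is 1 read of psmd13.

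The summed core (psma and psmb) took a larger share of reads in the 4AP experiment than in the demyelination experiment, and within each experiment the treated and control libraries overlapped. In 4AP controls 1 to 5 the core stood at 1551, 1299, 1702, 1348 and 1267 CPM. In 4AP 1 to 5 it stood at 1239.8, 1091, 1689.6, 1275 and 985 CPM. The groups overlap, and the highest 4AP library lies above 4 of the 5 controls. The means were 1434 ± 187 (SD, n = 5) in the controls and 1256 ± 269 (SD, n = 5) in 4AP, a log2 ratio of -0.19. On library sizes scaled with TMM (trimmed mean of M-values, which aligns the bulk of genes between libraries) the ratio was -0.59.

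The regulatory sum (psmc and psmd) was 849.8, 863, 1089 and 797 CPM in 4AP controls 1 to 4 and 1054 CPM in control 5. In 4AP 1 to 5 it was 987, 899, 1377, 939 and 716 CPM. The 4AP libraries here included both the highest and the lowest value of the 10. Means were 930.5 ± 132 and 984 ± 243 CPM (SD, n = 5 each), a log2 ratio of 0.08 that turned to -0.31 with TMM. The sums are a description without a test, and in bulk samples fewer cells of a type and less RNA per cell cannot be told apart.

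The balance between both sub-complexes split the 4AP controls along the prefix. The core made up 60.1% to 64.6% of core plus regulatory reads in controls 1 to 4 and 54.6% in control 5. In the 4AP libraries it made up 54.8% to 57.9%. Control 5 was thus below the range of the 4AP libraries and the other controls were above it. In demyelination controls 2 to 5 the share was 50.3% to 54.5%, and in demyelination it was 39.1% to 58.3%, with the lowest value in demyelination 3. In that library psmd3 alone held 23 of the 56 regulatory reads, so its low share rests largely on 1 gene.

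In the demyelination experiment the core sum was 799, 900.3, 819 and 975 CPM in controls 2 to 5. It was 858, 783, 444, 577 and 738 CPM in demyelination 1 to 5, so that 1 treated library lay inside the control range and 4 lay under it. The means were 873 ± 80.8 (SD, n = 4) and 679.99 ± 167 CPM (SD, n = 5), a log2 ratio of -0.36 without control 1 and -0.04 with it. The regulatory sum was 679, 752, 809 and 838 CPM in controls 2 to 5 and 613, 705, 691, 541 and 598 CPM in demyelination. Means were 769 ± 70.4 (SD, n = 4) and 629.5 ± 67.9 CPM (SD, n = 5). Over all 10 libraries its log2 ratio was -0.32. On TMM sizes the ratio was 0.23 for the core and 0.19 for the regulatory sum. With demyelination control 1 left out, whose TMM factor of 2.55 was the highest, these became -0.09 and 0.02. Over all 10 libraries the direction of both sums therefore depends on the scaling. On TMM sizes the direction of the core sum also depends on demyelination control 1. With demyelination 3 left out, a choice made after its values were seen, the demyelination mean of the core was 739 ± 119 CPM (SD, n = 4). That of the regulatory sum was then 614 ± 67.8 CPM (SD, n = 4).

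**Figure D2:**
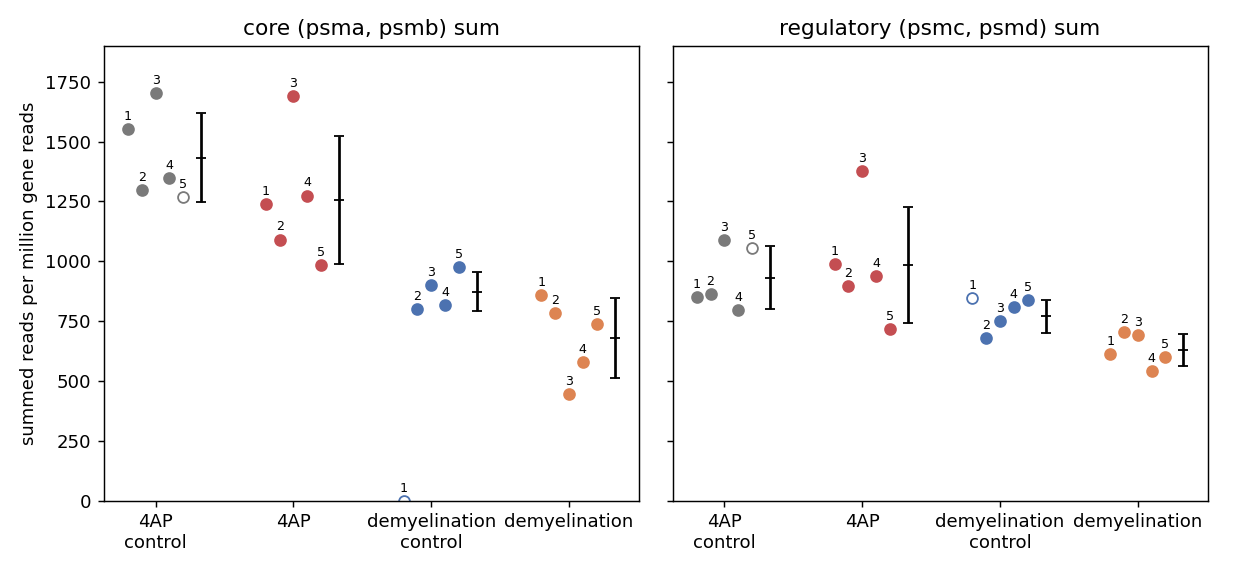
Summed CPM of the core genes (left) and the regulatory genes (right) in each library, numbered by replicate, with group mean and SD as bars. Open circles mark 4AP control 5 and demyelination control 1, and the latter is left out of its mean. All 4AP libraries and controls lie above the demyelination experiment in the core panel (985 CPM or more against 975 CPM or less), and treated and control libraries overlap or adjoin within each experiment.

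The 4AP treatment was compared with its control gene by gene with edgeR's quasi-likelihood test over all genes that passed a filter on low counts. Of the 56 genes, 34 passed, and 5 of them were called at an adjusted p (Benjamini-Hochberg) under 0.05. This is 14.7% of those tested, beside 13.1% of all 5161 genes tested, so the share was near the background. All 5 were lower in 4AP, and of all genes 10.1% were called lower and 2.98% higher. The 5 were the alpha ring genes psma2, psma3 and psma6a and the assembly chaperones psmd10 and psmg1. The median log2 fold change of the 34 was -0.26, that of all genes tested 0.19. With library totals in place of TMM these medians were 0.11 and 0.55, so that the genes stayed under the median of all genes while the sign of their own median changed. When 1 library at a time was left out, 2 to 13 genes were called, the most without 4AP control 5. In the like comparison with controls 1 to 4, described below, 38.2% of the 34 were called beside 45% of all genes. That rise was therefore not particular to the proteasome genes. Of the 5, only psmd10 was called in all 10 fits. The ATPase psmc1b, which the filter had left out of the 34, entered each of these fits because leaving out a library eased the filter. It was called lower in all 10, with log2 fold changes from -2.29 to -1.81. Its level was 64.9, 50.7, 75.4 and 36.8 CPM in 4AP controls 1 to 4. In control 5 it was 16.71 CPM, within the 4AP range of 9.745 to 18.97 CPM. It entered through its high values in controls 1 to 4, so these psmc1b calls are no separate support. With exon reads or library totals psmd10 alone was called, and with the library total added to the model 0 of the 34 were. The shares of all genes called under these settings are not given here, so these counts do not set the proteasome genes apart. With the prefix added, the 4AP libraries are compared with 4AP control 5 alone, as described below.

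**Figure D3:**
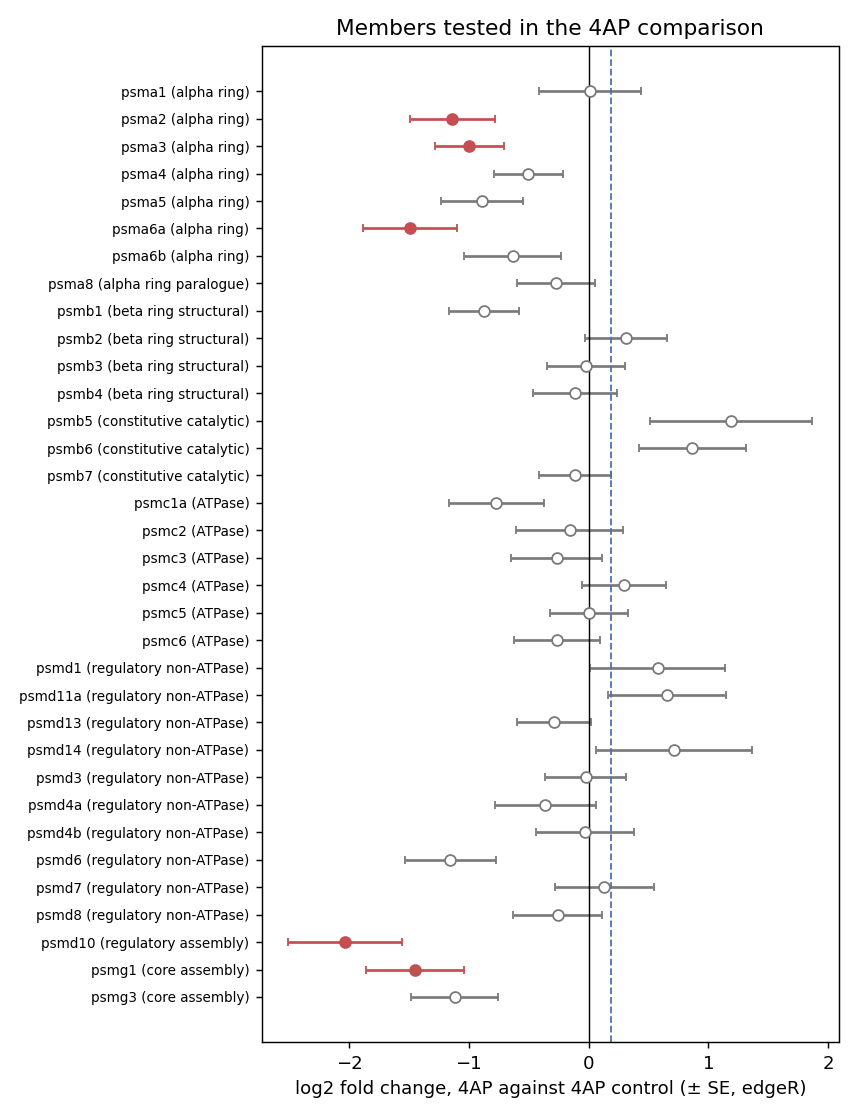
Log2 fold change of 4AP against 4AP control for the 34 genes tested (points, with the standard error as bars), ordered by role. Filled points are the 5 called genes, all left of 0, and the dashed line is the median of all 5161 genes at 0.19.

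The alpha ring held 3 of the 5 called genes. The 7 genes assigned to it, psma1 to psma5, psma6a and psma6b, were all tested. Of these, 6 had a negative log2 fold change, and the median of the 7 was -0.89. No gene was named psma7, and whether the ring was covered in full under other names is not known. The most abundant of all 56 genes was psma3 (ENSDARG00000086618, chr17:11421643-11439815, minus strand, GRCz11). It stood at 402, 345, 448, 398 and 259.6 CPM in 4AP controls 1 to 5 and at 325, 179.9, 332, 192 and 146 CPM in 4AP. Its log2 fold change was -0.99 ± 0.29 (SE; edgeR adjusted p = 0.0326). Controls 1 to 4 were above all 4AP libraries, and control 5 lay among them.

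For psma2 (ENSDARG00000040121, chr16:43335696-43344859, minus strand) the controls stood at 185, 74.4, 108, 79.7 and 65.7 CPM. The 4AP libraries stood at 72.9, 58.2, 74.3, 51.0 and 42.9 CPM. It fell by 1.14 ± 0.35 on the log2 scale (edgeR adjusted p = 0.0416). As CPM, controls 1 to 4 lay above all 4AP libraries and control 5 lay among them. After TMM scaling its groups did not overlap, with 74.4 or more in the controls and 72.4 or less in 4AP. Its span overlaps atad2 on the same strand and mrpl32 on the other.

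The third was psma6a (ENSDARG00000019398, chr17:12955390-12966907, minus strand), one of 2 copies of the gene in zebrafish. It stood at 58.7, 128, 108, 85.8 and 33.4 CPM in the controls and at 30.9, 27.7, 50.6, 43.6 and 28.6 CPM in 4AP. The fall was 1.49 ± 0.39 on the log2 scale (edgeR adjusted p = 0.0219), and control 5 again lay inside the 4AP range. Its paralogue psma6b was at 18.9 to 91.9 CPM in the controls and 29.5 to 52.7 CPM in 4AP, with a log2 fold change of -0.63 (adjusted p = 0.271). The remaining alpha ring genes ranged from -0.89 for psma5 to 0.01 for psma1. The paralogue psma8, known from the testis of mammals, had a log2 fold change of -0.28 and was seen in 19 libraries.

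None of the 3 constitutive catalytic subunits of the inner rings passed the test. The chymotrypsin-like subunit psmb5 (ENSDARG00000075445, chr2:38373272-38392575, plus strand) was at 0 CPM in 4AP controls 1, 3 and 4, 3.38 CPM in control 2 and 26.7 CPM in control 5. It was at 25.3, 18.8, 33.2, 29.8 and 26.7 CPM in 4AP. Control 5 therefore resembled the treated libraries and not its own group. The log2 fold change of 1.19 ± 0.68 was the largest of the 34 (edgeR adjusted p = 0.220).

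The caspase-like subunit psmb6 followed the same order. It was at 12.4, 37.2, 9.43 and 12.3 CPM in controls 1 to 4, 61.3 CPM in control 5 and 50.5, 49.2, 109, 76.2 and 54.3 CPM in 4AP. The log2 fold change was 0.87 ± 0.45 (edgeR adjusted p = 0.180). The trypsin-like subunit psmb7 had the highest mean CPM of the psmb genes over all libraries, though psmb1 was higher in the 4AP controls. It was at 136, 87.95, 132, 55.2 and 164 CPM in the controls and 112, 119, 159.6, 169.7 and 112 CPM in 4AP, and its groups overlapped. Its log2 fold change was -0.12 (adjusted p = 0.799). Of the 4 structural beta genes tested none was called, and psmb1 had the most negative value, -0.87 (adjusted p = 0.0560).

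The inducible catalytic subunits, which replace the constitutive ones in immune cells and after interferon to form the immunoproteasome, were close to the limit of detection. The 20 libraries held 102 reads of psmb10, 6 of psmb8a and 5 of psmb9a. For psmb10 there were 0 reads in 4AP controls 1 to 4, 4 in control 5 and 6 to 16 in each 4AP library (4.46 CPM in control 5 and 3.44 to 25.3 CPM in 4AP). The demyelination controls 2 to 5 had 7.07, 8.26, 18.2 and 13.2 CPM of psmb10, and demyelination 1 to 5 had 24.5, 0, 0, 12.03 and 11.05 CPM. The largest of these treated values is 1 read. The span of psmb8a overlaps those of psmb9a, psmb12 and psmb13a on chromosome 19, and that of psmb9a overlaps psmb8a and psmb13a. Of the psmb8a reads 16.7% were counted as unique gene reads, so the psmb8a reads cannot be assigned to a single gene. Of the psmb9a reads 100% were counted as unique.

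Of the regulatory particle, none of the 6 ATPase genes tested (of 7) was called, with log2 fold changes from -0.77 for psmc1a to 0.29 for psmc4. The highest mean over all libraries was that of psmc6, at 37.1, 74.4, 113, 55.2 and 96.9 CPM in the controls and 101, 66.2, 131, 55.6 and 43.8 CPM in 4AP. These ranges overlap almost fully. The 10 non-ATPase genes tested (of 12) lay between -1.15 for psmd6 (adjusted p = 0.0510) and 0.71 for psmd14, the deubiquitinase that removes ubiquitin chains before degradation. Their median was -0.03. The lid subunit psmd13, whose mean over the 20 libraries is the highest of psmd through 1 read of demyelination control 1, was at 64.9, 98.1, 94.3, 42.9 and 80.2 CPM in the controls and 75.7, 68.0, 114, 77.4 and 61.9 CPM in 4AP. Without that library psmd6, another lid subunit, had the highest mean. It was at 139, 132, 156, 42.9 and 56.8 CPM in the controls and 72.9, 51.0, 80.6, 55.0 and 43.8 CPM in 4AP, and its groups overlapped.

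The assembly chaperones gave the lowest value of the 34. In mammals psmd10 is known as gankyrin, and it helps the ATPase ring to form and then leaves it. In 4AP controls 1 to 4 psmd10 (ENSDARG00000015628, chr14:28464736-28469244, plus strand) stood at 83.4, 71.0, 61.3 and 85.8 CPM. It stood at 12.3 CPM in control 5 and at 16.8, 21.5, 18.97, 16.1 and 19.1 CPM in 4AP. Its log2 fold change was -2.03 ± 0.48 (edgeR adjusted p = 0.0137). Controls 1 to 4 lay above every 4AP library and control 5 below all 5 of them. Its span overlaps nxt2 on the other strand.

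The core chaperone psmg1, which guides the alpha ring together with psmg2, lacked this exception. The gene (ENSDARG00000040620, chr10:206996-210703, minus strand) was at 52.5, 40.6, 28.3, 85.8 and 33.4 CPM in the controls and at 11.2, 25.1, 17.4, 26.9 and 21.0 CPM in 4AP. Its groups did not overlap, control 5 included, and it fell by 1.45 ± 0.41 on the log2 scale (edgeR adjusted p = 0.0300). The gap was narrow, between 28.3 CPM in control 3, which is 6 reads, and 26.9 CPM in 4AP. The share of all genes whose groups do not overlap is not given here, so the lack of overlap does not set psmg1 or other proteasome genes apart. The most abundant psmg gene, psmg3, was at 46.4, 57.5, 56.6, 98.1 and 36.8 CPM in the controls and 33.7, 23.3, 26.9, 40.1 and 37.2 CPM in 4AP. Its groups did not overlap after TMM scaling, and its log2 fold change of -1.12 missed the threshold (adjusted p = 0.0503). The remaining chaperone of the core, psmg2, did not pass the filter.

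The activators and the inhibitor were too low for the test, and none passed the filter. Without psme3ip1 their summed level was 6.77 to 28.3 CPM in 4AP controls 1 to 4, 61.3 CPM in control 5 and 36.5 to 77.4 CPM in 4AP. The activator psme4b, with the highest mean over all libraries, was at 6.18, 3.38, 14.1, 6.13 and 13.4 CPM in the controls and 25.3, 15.2, 14.2, 31.5 and 35.3 CPM in 4AP. The inhibitor psmf1 had 0 reads in 4AP controls 1 to 3, 1 read in control 4 and 0 to 6 reads in control 5 and the 4AP libraries.

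**Figure D4:**
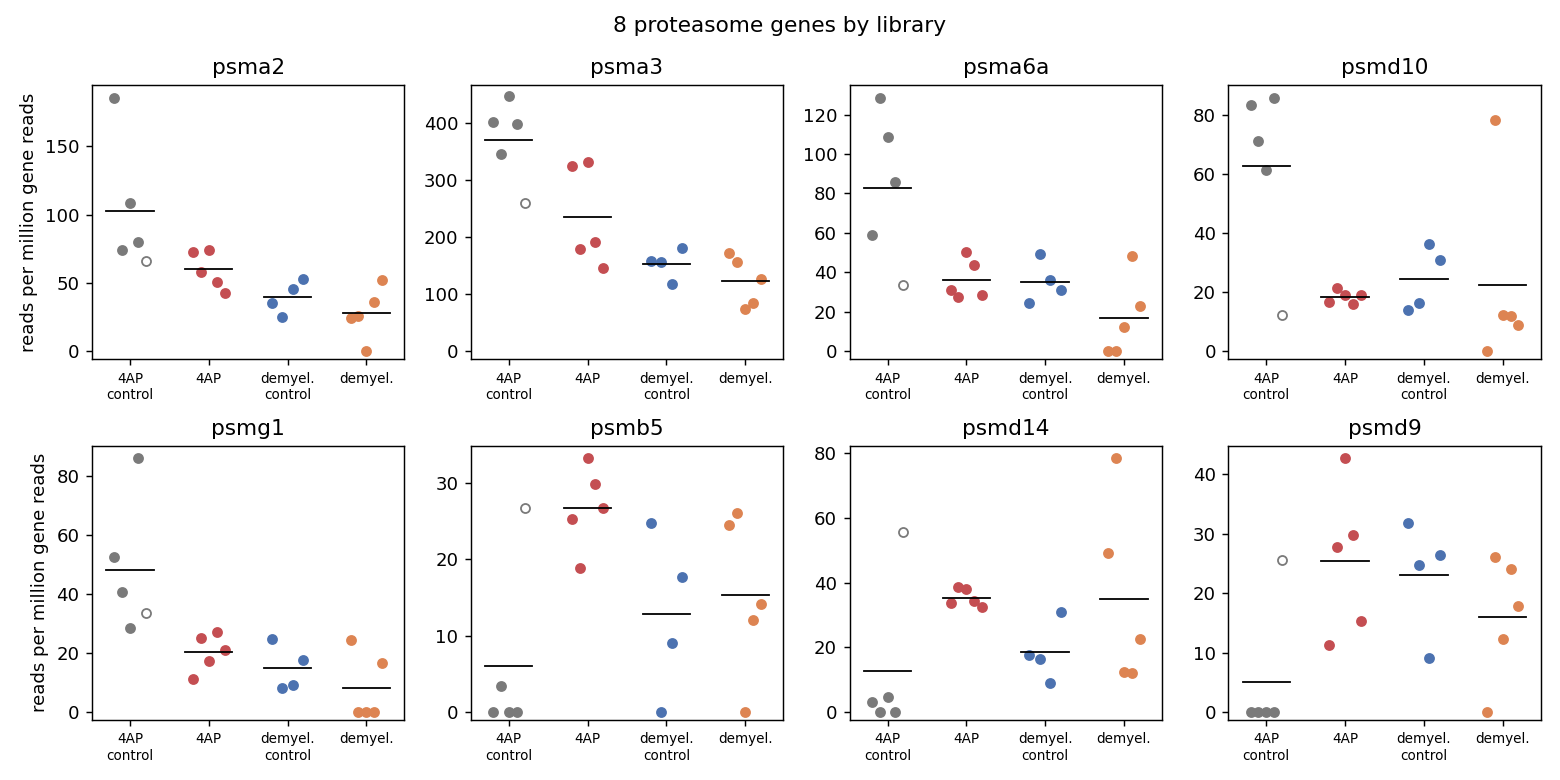
CPM of 8 genes by library, with a line at each group mean and 4AP control 5 as an open circle; demyelination control 1 is left out. In psma6a, psmb5 and psmd9 control 5 lies within the 4AP range and apart from controls 1 to 4. In psmd10 it lies below all 4AP libraries and in psmd14 above all of them, in both apart from controls 1 to 4. In psmg1 it lies with the controls.

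The difference among the 4AP controls was measured in its own right, after the values had been seen. Controls 1 to 4 together held 994426 reads, close to the 897620 of control 5, and 36 of the 56 genes had overlapping 95% exact binomial (Clopper-Pearson) intervals. In 12 genes the interval of control 5 lay above and in 8 below. Of the 21641 genes with a read in the 4AP controls, 13.8% lay above and 6.9% below by the same rule. Deeper genes have narrower intervals. Among the 5161 genes of the edgeR fit the shares were 29.4% and 17.7%, and of the 34 proteasome genes in that fit 8 lay above and 7 below, so their share was near the background. The deubiquitinase psmd14 had 2 reads in controls 1 to 4 (2.01 CPM, interval 0.244 to 7.27) and 50 in control 5 (55.7 CPM, interval 41.3 to 73.4). Reads of psmd9, a chaperone of the ATPase ring, numbered 0 in controls 1 to 4 and 23 in control 5. For the scaffold subunit psmd1 the reads were 14 and 85, and for psmb5 they were 1 and 24. In the other direction psmd10 had 75 and 11 reads, psma6a 94 and 30, and the ATPase psmc1b 58 and 15. These intervals cover counting error only. In controls 1 to 4, 11 of the 56 genes had 0 reads, and 7 of the 11 had reads in control 5. In controls 1 to 4 together 3 reads correspond to 3.02 CPM, and the upper bound of the interval for 0 reads is 3.71 CPM. Of all genes, 9750 to 11048 had a read in each of controls 1 to 4 and 20281 in control 5. The matching share of all genes is not given here, so these counts do not set the proteasome genes apart.

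**Figure D5:**
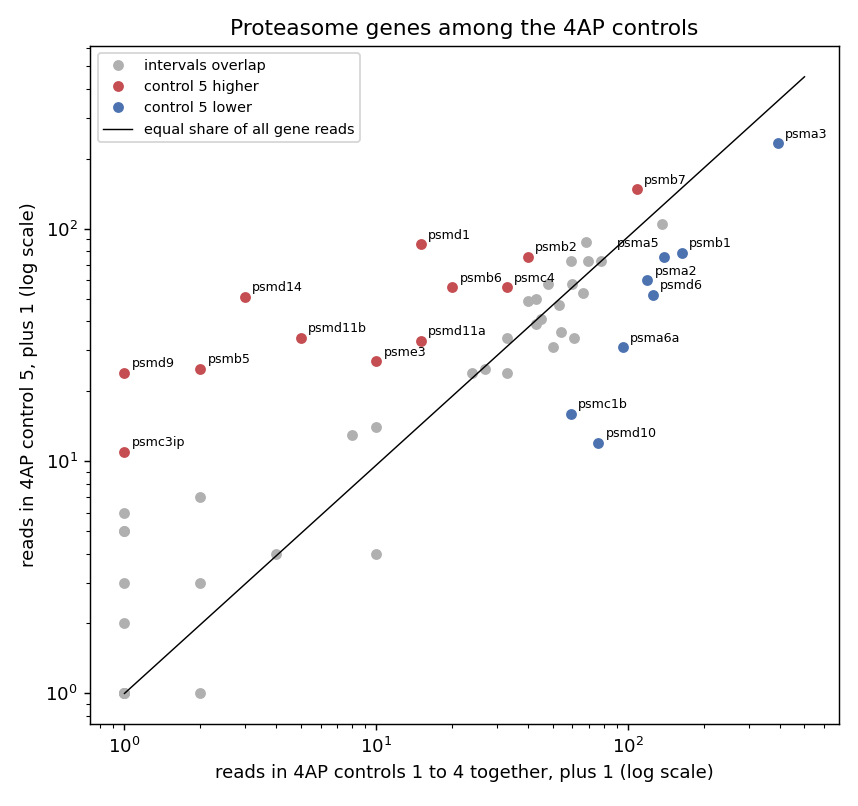
Reads of the 56 genes in 4AP control 5 (vertical) against 4AP controls 1 to 4 together (horizontal), each plus 1 on log scales, with a line at equal shares of gene reads. Red points (12) and blue points (8) have 95% exact binomial intervals that lie apart; psmd14, psmb5 and psmd9 are far above the line and psmd10 is far below it.

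With a coefficient of its own in the edgeR fit, control 5 differed from controls 1 to 4 at 17.3% of the 5161 genes (10.8% higher and 6.47% lower). Control 5 is a single library, so it was assumed to vary like the other groups, from which the spread was taken. It was fitted because it had been seen to stand apart, and the values are a description. Of the 34 proteasome genes 5 were past the threshold. The log2 difference was 4.52 for psmd14, 4.37 for psmb5 and 2.53 for psmd1, and it was -2.77 for psmd10 and -1.67 for psma6a.

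Against controls 1 to 4 alone, the 4AP libraries differed at 45% of genes (25.2% higher and 19.9% lower) and at 13 of the 34, of which 4 were higher (psmb5 4.17, psmd14 3.68, psmd1 1.80 and psmb6 1.47 on the log2 scale). The other 9 were lower. Against control 5 alone they differed at 0% of genes (0 called, 106 at an unadjusted p under 0.05) and at 0 of the 34. There psmd10 had a log2 fold change of 0.41, psma6a -0.07, psmg1 -0.82, psma3 -0.36 and psma2 -0.35 (edgeR adjusted p = 0.999 for each). These comparisons share libraries, and the last rests on 1 control. Whether the 5 calls follow 4AP or whatever the prefix stands for cannot be told apart beyond that control.

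Some other measures also separated controls 1 to 4 from the other libraries of the experiment. The summed OPC markers did not, at 247 to 503 CPM in controls 1 to 4, 509 CPM in control 5 and 689 to 893 CPM in 4AP. Controls 1 to 4 had 9750 to 11048 genes with a read, control 5 had 20281 and the 4AP libraries had 17096 to 22644. Introns took 34.3% to 38.5% of reads in controls 1 to 4, 20.5% in control 5 and 24.3% to 29.8% in 4AP. Of 8 neuron markers, 3 to 5 had a read in each of controls 1 to 4, with stmn2a, gap43 and snap25b at 0 in all 4. All 8 had a read in control 5 and in each 4AP library. Not all neuron markers were scarce in controls 1 to 4. There syt1a had 21, 17, 9 and 9 reads, against 54 in the deeper control 5, and it held 21 of the 27 neuron marker reads of control 1. The summed neuron level was 83.4 to 159 CPM in controls 1 to 4, 547 CPM in control 5 and 393 to 599 CPM in 4AP. Of 12 leukocyte and microglia markers, 4 to 6 were seen in controls 1 to 4, 10 in control 5 and 9 to 11 in 4AP. Single markers went both ways. In controls 1 to 4 ptprc and spi1b had 0 reads, while lcp1 had 19, 23, 23 and 20 reads, against 31 in the deeper control 5. The summed levels below take in all 12. The summed level of the 12 was 943 to 1529 CPM in controls 1 to 4, 575 CPM in control 5 and 522 to 635 CPM in 4AP. Most of it was apoeb, and the other 11 summed to overlapping levels of 95.8 to 190.0 CPM, 128 CPM and 83.8 to 157 CPM. Of 6 radial glia markers gfap and slc1a3b were at 0 in controls 1 to 4 and present in the others. The summed radial glia level overlapped, at 1045 to 1339 CPM in controls 1 to 4, 1936 CPM in control 5 and 1178 to 1952 CPM in 4AP. The part of these measures in the proteasome values was not tested.

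Demyelination was compared with its control in the same way, with less depth. Of the 56 genes only psma3 passed the filter, and 823 genes were tested. Its values were 159, 157, 118 and 181 CPM in demyelination controls 2 to 5 and 172, 157, 74.0, 84.2 and 127 CPM in demyelination. The groups overlap, and the log2 fold change was -0.08 ± 0.30 (edgeR adjusted p = 0.941). Of the 823 genes 0% were called, with 78 at an unadjusted p under 0.05, and DESeq2 called 1 gene, which was not a proteasome gene. Without any filter the test covered all 56 genes and called 0.

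At this depth single genes could not be resolved in most demyelinated libraries. In demyelination 1 to 4 a count of 3 reads corresponds to 36.1 to 78.3 CPM, and in demyelination 5 to 0.850 CPM. In demyelination 5 the alpha ring gene psma3 had 449 reads, psmb7 had 293 and psmd1 had 200. Of the 5 genes called for 4AP, 4 were not tested here, and the groups of all 5 overlapped. The chaperone psmd10 was at 14.1, 16.5, 36.4 and 30.9 CPM in controls 2 to 5 and at 0, 78.3, 12.3, 12.03 and 9.07 CPM in demyelination. The value of 78.3 CPM is 3 reads. For psmg1 the controls 2 to 5 were at 24.7, 8.26, 9.10 and 17.6 CPM and the demyelinated libraries at 24.5, 0, 0, 0 and 16.7 CPM.

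Both responses were then set against each other in a fit of all 20 libraries, as the change with 4AP minus the change with demyelination. Of the 3981 genes tested 1.66% were called (0.352% positive and 1.31% negative), and of the 30 proteasome genes among them 0 were, with 2 at an unadjusted p under 0.05. The most negative difference was that of psmg3, at -1.75 ± 0.73 on the log2 scale (edgeR adjusted p = 0.214), followed by psma8 at -1.65 ± 0.65 (adjusted p = 0.188). The most positive was that of psmb6, at 1.28 ± 0.72 (adjusted p = 0.382). A p above the threshold does not show that both treatments acted alike. Without 4AP control 5, 1 of 31 proteasome genes was called, the ATPase psmc1b (log2 difference -2.42, edgeR adjusted p = 0.0169), beside 18.4% of the 4018 genes then tested. This gene was not among the 30 and entered here too through the eased filter.

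A wider list of 37 genes around the proteasome (its ubiquitin receptors and deubiquitinases, transcription factors, shuttle factors and ubiquitin itself) was read beside it. Of these 31 were in the tables by name and 20 were tested for 4AP. The test called 3 of the 20 lower, beside 10.1% of all genes called lower, and 0 higher, with a median log2 fold change of -0.05 beside 0.19 for all genes. The 3 bind the regulatory particle. They were the deubiquitinases usp14 and uchl5 and the small lid subunit sem1. For usp14 the controls stood at 71.1, 91.3, 70.7, 104 and 10.03 CPM and 4AP at 16.8, 23.3, 20.6, 21.8 and 17.2 CPM (log2 fold change -2.05 ± 0.50, edgeR adjusted p = 0.0155). For uchl5 they stood at 40.2, 64.3, 47.2, 55.2 and 15.6 CPM and at 8.42, 17.9, 15.8, 24.1 and 12.4 CPM (log2 fold change -1.70 ± 0.46, edgeR adjusted p = 0.0253). For both genes controls 1 to 4 were above the 4AP range and control 5 was in or below it. For sem1 the controls stood at 204, 274, 273, 239 and 158 CPM and 4AP at 78.5, 176, 125, 157 and 137 CPM (log2 fold change -1.07 ± 0.29, edgeR adjusted p = 0.0258). Of the list 5 genes were tested for demyelination and 17 for the difference, and 0 were called in either.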

How the data were processed

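Per the file headers, each deposited table held, for 31743 genes, read counts of 4 kinds (total, unique, exonic and intronic). Per the labels' protocols, libraries were made with a QIAseq UPX kit for 3′ ends. The build was GRCz11 per the submitters' processing notes, and coordinates are those of the tables. Aligner, annotation, strand and use of molecular identifiers are not given in the sources used here, so copies of 1 molecule may be counted repeatedly.

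Total gene reads were filtered with filterByExpr (minimum count 10, minimum total 15), scaled with TMM and fitted with edgeR's robust quasi-likelihood test (edgeR 4.0.16, limma 3.58.1, R 4.3.3). Calls were made at a Benjamini-Hochberg adjusted p under 0.05 over all genes tested. The standard error was the log2 fold change divided by the root of F. Alternatives included DESeq2 1.42.0. Scripts were tested on simulated data.

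Genes named were those called, the catalytic subunits, the most abundant of each family and the largest changes; psmd14, psmd9, psmd6, psmd1, psmd3 and psma8 were added after their values were seen. The genes and lists were chosen with earlier results of these data known. Sequences were not used here. All pairs of libraries within a group were compared for duplicates.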

Additional observations from a re-analysis of the deposited data

Results flagged for a closer look

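In each group of libraries (demyelination control 1 left out), the highest or lowest value was looked at for a gap to the nearest other library wider than Dixon's critical value. Over 23 genes and sums in 4 groups, 92 groups in all, 11 were picked out. Chance alone picks about 1 in 20 where values are continuous and normally spread. Several of these groups hold only a few reads in libraries of unequal depth. Where 1 library alone has reads, as for psmb10, psmd9 and psmf1 below, the gap always equals the whole range. The number picked out therefore cannot be judged against that rate. The genes psmd14, psmd1, psmd3, psmd9 and psma8 were among the 23 because of their values.

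In 4AP control 5, psmb5 was at 26.74 CPM (other controls 0 to 3.383), psmd14 at 55.7 CPM (0 to 4.716), psmd9 at 25.62 CPM (0 in the others) and psmb10 at 4.456 CPM (0 in the others). This is the control that shares its table prefix with the 4AP libraries.

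In the demyelination experiment several of the picked values are a few reads. In demyelination 2 psmd10 was at 78.3 CPM, which is 3 reads, against 0 to 12.33 CPM. In demyelination 1 psma8 was at 49.03 CPM, which is 2 reads, against 24.05 to 26.1 CPM. In demyelination control 4 psmg3 was at 27.29 CPM, which is 3 reads, against 16.52 to 17.67 CPM. In the deep library demyelination 5 psme4b was at 45.62 CPM (0 to 12.33 in the others) and psmf1 at 3.117 CPM (0 in the others).

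The subunit psmd3 was at 283.7 CPM in demyelination 3, against 0 to 24.52 CPM in the others. Its 23 reads there held 0 intron reads. In 4AP 3 psmd1 was at 80.61 CPM, against 58.18 to 64.2 CPM.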

How the results depend on the processing

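For 4AP the number of proteasome genes called was 5. It was 4 with DESeq2 size factors and 7 with the stricter filter, unique reads or all 20 libraries in 1 fit. It was 8 with DESeq2's Wald test, 3 without a filter, 1 with library totals and 1 with exon reads. It was 0 with depth (the library total) added to the model. Replicate numbers did not pair the samples (correlations of same-numbered deviations -0.034 to 0.098 for 4AP and -0.096 to 0.098 for demyelination). With the replicate block 3 genes were called. Leaving out 1 library at a time gave 2 to 13 calls: 13 without 4AP control 5, 2 without 4AP control 2, 4AP 2 or 4AP 5, and 3 or 4 otherwise. The shares of all genes called under these settings are not given here, so the counts do not set the proteasome genes apart. Of the called genes psmd10 passed in all 10 such fits, and psma2 failed in 9, psmg1 in 8, psma3 in 7 and psma6a in 5. The ATPase psmc1b, which the filter left out of the main fit, was called lower in all 10. It entered them through the eased filter, with its high values in 4AP controls 1 to 4, so these calls are no separate support. It was also called in the fit without a filter (log2 fold change -1.87).

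With the prefix as a term, only 4AP control 5 serves as the control for 4AP. That fit repeats the comparison with this 1 library and is not a separate check. There the sign changed for psmd10 (0.41), psmb1 (0.027), psmb5 (-0.19), psmb6 (-0.049) and psmd14 (-0.84). For demyelination 0 genes were called under all 20 alternatives, and psma3 was at -0.20 to 0.012 when 1 library was left out (0.012 without demyelination control 5) and at -0.54 to -0.0071 under the others. The prefix could not be fitted there, with 1 prefix in the experiment. For the difference between treatments 0 to 1 genes were called when 1 library was left out, and 0 otherwise.

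With TMM sizes the log2 ratio of the core sum for 4AP was -0.59, that of the regulatory sum -0.31. For demyelination they were 0.23 and 0.19, and -0.094 and 0.021 with demyelination control 1 also left out, an alternative chosen after seeing the data. Leaving out 1 library gave -0.32 to -0.11 and -0.07 to 0.18 for the core and regulatory sums in 4AP, and -0.36 to 0.11 and -0.37 to -0.27 in demyelination. The cause of these shifts was not tested. Depth limits all values of demyelination 1 to 4 and demyelination control 1.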
